A study of Canis lupus familiaris with 4 samples.

Results

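Matrix metalloproteinases and their TIMP inhibitors were followed in stem-like cells of the canine mammary cancer lines CMT-U27 and P114, with and without tumour-associated macrophages. The 9 genes were MMP1, MMP2, MMP3, MMP9, MMP13, MMP14, TIMP1, TIMP2 and TIMP3. A probe was taken when the gene name or the bracketed symbol in its description was on that list. This found 20 probes for 8 of the 9 genes. MMP1 was found only through its RefSeq gene ID, with 2 probes that the files name LOC489428, which brought the set to 22 of 43603 probes and 9 of 13796 gene symbols. Of these 22 probes, 17 exceeded background clearly, by the scanner software's flag, in both replicates of 1 line and culture or more and were tested, among 28692 tested probes in all.

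The 4 groups were CMT-U27 stem-like cells in co-culture with macrophages, CMT-U27 stem-like cells in single culture, P114 stem-like cells in co-culture and P114 stem-like cells in single culture, each at day 3. All cells had been sorted from the lines by flow cytometry as positive for Sca1, EpCAM and CD44, and total RNA was hybridised to 2-colour oligonucleotide arrays. Each of the 4 arrays held the co-culture and the single culture of a line, with the dyes swapped on the second array of that line. The labels call the arrays biological replicates and do not say that they came from separate cultures or extracts. P-values therefore measure only the spread between these arrays that a dye term leaves, possibly a technical one. The origin of the macrophages, and whether they were parted from the tumour cells before RNA isolation, is not given in the sources used here.

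Each ratio is the log2 of co-culture over single culture, turned by the dye label of each channel. The records put Cy3 in channel 1 for P114 and Cy5 in channel 1 for CMT-U27, and an error in that order would turn every ratio of that line round. P114 replicate 1 stood apart, with 89.4% of spots well above background in Cy3 and 91.7% in Cy5, against 57.9% to 65.7% in the channels of the other arrays. Saturation affected 0 spots. Across the 28692 tested probes the ratios of the 2 arrays correlated at a Pearson r of 0.05 in CMT-U27 and -0.15 in P114, a description over probes, which are not independent. All 4 arrays lay on 1 slide.

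Matrix metalloproteinases are zinc-dependent enzymes that cut extracellular matrix proteins and many cell surface proteins, and most are secreted as inactive precursors. Tissue inhibitors of metalloproteinases, the TIMPs, bind the active site of the mature enzymes and hold them back. In mammary tumours both the cancer cells and the surrounding stroma, macrophages included, are known sources of these proteins, and the balance of enzyme to inhibitor bears on invasion.

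The probes that carry the results below are shown by their first 30 bases, 5′ to 3′, read from the scanner files and placed by those files on the canine assembly CanFam3.1. TIMP3 had 4 tested probes on the minus strand of chromosome 10. The first is a 60-base probe spread over chr10:30629505-30637057, a stretch of 7553 bases, so it crosses at least an exon junction. The others lay at chr10:30626270-30626329, chr10:30625811-30625870 and chr10:30623756-30623815, which is 3176, 3635 and 5690 bases further along the strand. The GC content was 53.33% for the junction-crossing probe and 35% to 36.67% for the others. No annotation of that assembly was used, so exon and UTR limits are not given.
A_11_P089646: aggggccctttggcacgctggtctatacca
A_11_P177918: ggacataagctaattttttacaggacacag
A_11_P142403: gaagcctgactctgcaatccgctgtagagt
A_11_P0000038822: ccctatctggaaggaatgtatttgttgcta

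TIMP1 had 2 tested probes on the plus strand of chromosome X, at chrX:41205047-41205105 and chrX:41205238-41205297. They are shown because both carried the difference between the lines described below.
A_11_P053801: acctgttcatccatcccctgcaaactgcag
A_11_P0000019900: ctgcacagtgttcaccccacttcccactcc

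MMP9 had 5 probes, of which 2 passed the filter. These 2 lay at chr24:33281039-33281098 and chr24:33281028-33281087, shared 49 bases and differed at 1 of them, so they are not independent measurements of the gene. A window of 30 shared bases is shown with the differing base in capitals. Counted from 1 at the 5′ end of the window, the change from the first probe to the second is G16C.
A_11_P0000019937: gtgaaccaggtggacGaagtgggctacgtg
A_11_P053796: gtgaaccaggtggacCaagtgggctacgtg

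The remaining tested probes were 2 for MMP1, 2 for MMP2, 1 for MMP3, 1 for MMP13, 2 for MMP14 and 1 for TIMP2. MMP13, MMP3 and MMP1 lay close together on chromosome 5, in the order chr5:28859014-28860065, chr5:28956359-28956418 and chr5:28979838-28979897, the last being the nearer of the MMP1 probes. A second TIMP2 probe lay at chr9:2523951-2524011 on the minus strand, opposite to the tested TIMP2 probe at chr9:2524028-2532168. It failed the filter, as did 1 MMP2 probe and 3 MMP9 probes. Where a gene had several tested probes, the brightest one represents it below.

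With macrophages present, no member passed the test in either line, but TIMP3 stood out in P114. Its 3 downstream probes were lower in co-culture on both P114 arrays, by 1.44-fold for the brightest probe and 1.76-fold for the most reduced one, and lay among the most reduced of all tested probes. In CMT-U27 the ratios of the same probes ran from -0.15 to 0.03. TIMP1, TIMP2, MMP3 and MMP9 were slightly higher in co-culture on both CMT-U27 arrays, by at most 1.22-fold on average. The test was limma on all 28692 probes with Benjamini-Hochberg adjustment at 0.05. It called 0 probes (0%) in CMT-U27, with 928 at an unadjusted p under 0.05 and a smallest adjusted p of 0.147, and 0 probes (0%) in P114, with 1758 at an unadjusted p under 0.05 and a smallest adjusted p of 0.797.

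TIMP3 is the TIMP that binds to the extracellular matrix and also inhibits ADAM proteases. The brightest TIMP3 probe, A_11_P0000038822, had P114 levels of 10.54 and 10.82 log2 intensity units in co-culture, against 11.10 and 11.31 in single culture. Every co-culture value was below every single-culture value. With 2 values against 2 this is no test, and how many of all tested probes do the same was not counted. This limit holds for every statement below that groups did not overlap. The ratios were -0.56 and -0.49 on P114 replicates 1 and 2, a mean of -0.52 ± 0.05 (SD, n = 2), or 1.44-fold lower.

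The probe A_11_P142403 had P114 levels of 10.08 and 10.02 in co-culture, against 10.89 and 10.83 in single culture. Its ratios were -0.81 on both P114 arrays, a mean of -0.81 with an upper 95% limit of -0.62, or 1.76-fold lower. The probe A_11_P177918 had P114 levels of 8.03 and 8.18 in co-culture, against 8.58 and 8.82 in single culture. Its ratios were -0.54 and -0.63, a mean of -0.59 ± 0.06 (SD, n = 2). For both probes the cultures did not overlap.

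Counted from the most reduced of the 28692 tested probes in P114, these 3 probes held ranks 55 for A_11_P142403, 74 for A_11_P177918 and 89 for A_11_P0000038822. By the limma p they held ranks 3, 9 and 35 in the same order. Their adjusted p was 0.797 in each case in limma, so none passed. For scale, 99% of all tested probes had a P114 mean ratio within 0.38 of 0. The Cy5 over Cy3 ratio of A_11_P142403 was 0.81 on P114 replicate 1 and -0.81 on P114 replicate 2, so its sign turned with the dyes, as it did for the other 2 downstream probes.

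The junction-crossing probe A_11_P089646 did not show this difference. Its P114 levels were 7.24 and 7.20 in co-culture, against 7.27 and 7.33 in single culture, and its ratios were -0.02 and -0.13. It was dim on these arrays, close to the channel medians of 6.86 to 7.02 for tested probes that were not well above background, while the downstream probes were brighter than those medians by at least 1 log2 unit. Its mean of -0.08 had a 95% interval from -0.28 to 0.13. The offset of 50 added in the background correction draws ratios of dim probes towards 0, and its part in this contrast between the probes was not tested.

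Under median centring instead of loess, the P114 ratio was -0.13 for the brightest TIMP3 probe and -0.43 for A_11_P142403, and the median of all tested probes was 0.16. Epithelial markers were read beside TIMP3, and 0 of 9 passed in P114. Of these, 7 had a ratio below 0, while 55.1% of all tested probes had a ratio above 0 in P114. The median ratio of the 9 was -0.20. Their summed linear level was 18241 to 18856 in P114 co-culture, against 21217 to 21306 in P114 single culture. Their part in the TIMP3 ratio was not tested.

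**Figure D1:**
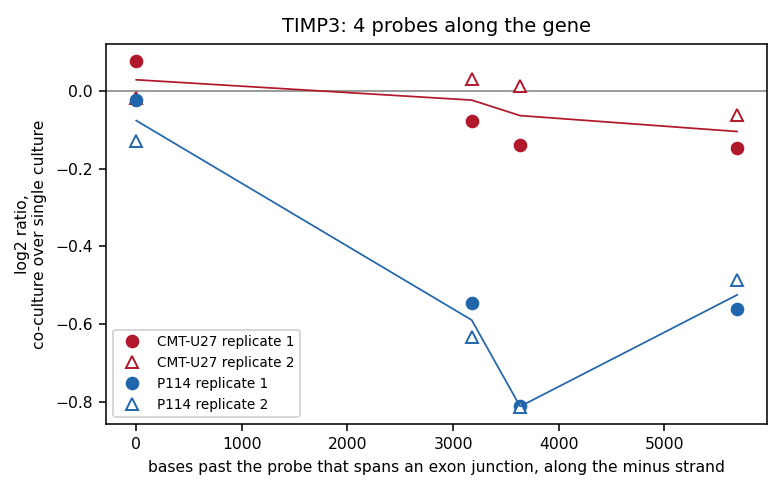
Log2 ratio of co-culture over single culture for the 4 TIMP3 probes (vertical axis) against distance in bases past the junction-crossing probe along the minus strand (horizontal axis). Filled circles are replicate 1, open triangles are replicate 2, red is CMT-U27, blue is P114, and lines join the means. The 3 downstream probes lie between -0.49 and -0.81 in P114 and between -0.15 and 0.03 in CMT-U27.

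In CMT-U27, TIMP3 was close to 0 under loess. The brightest probe had 11.63 and 11.49 in co-culture, against 11.77 and 11.56 in single culture, and ratios of -0.15 and -0.06. With median centring its mean turned to 1.26, beside a median of 0.68 over all tested probes. The levels of the 2 cultures overlapped for A_11_P142403, at 10.85 and 10.81 in co-culture, against 10.99 and 10.79 in single culture. The response of CMT-U27 minus that of P114 was 0.42 for A_11_P0000038822, 0.75 for A_11_P142403 and 0.57 for A_11_P177918. That difference was tested in limma, which called 0 of 28692 probes (0%), with 821 at an unadjusted p under 0.05. The TIMP3 probes had unadjusted p-values of 0.0135, 0.0018 and 0.00354 across this limma fit and an adjusted p of 1. Under median centring the same differences were 1.39, 1.66 and 1.31, beside a median of 0.51 over all tested probes, and passed with adjusted p = 0.00631, 0.00314 and 0.0069 in limma.

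TIMP1 is a secreted inhibitor of most metalloproteinases and is known to bind the precursor of MMP9. In CMT-U27 its brightest probe had 11.82 and 11.98 in co-culture, against 11.65 and 11.89 in single culture, with ratios of 0.17 and 0.10. In P114 it had 14.38 and 14.07 in co-culture, against 14.43 and 14.33 in single culture, with ratios of -0.05 and -0.26. The second probe had ratios of 0.34 and 0.23 in CMT-U27 and of 0.19 and -0.36 in P114, so its P114 arrays disagreed in sign. The mean CMT-U27 difference was 1.22-fold for the second probe, with an adjusted p of 1 in limma. With median centring the P114 mean of the brightest probe turned to 0.29.

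TIMP2, which also takes part in the activation of pro-MMP2 by MMP14, had 9.18 and 9.40 in CMT-U27 co-culture, against 8.94 and 9.19 in single culture. In P114 it had 9.32 and 8.85 in co-culture, against 9.07 and 8.95 in single culture. Its CMT-U27 ratios were 0.24 and 0.21, and its P114 ratios were 0.25 and -0.10. The ratios agreed in CMT-U27 and opposed each other in P114. The CMT-U27 mean of 0.23 had a 95% interval from -0.04 to 0.49.

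Among the enzymes, the stromelysin MMP3, which cuts proteoglycans and activates other metalloproteinases, had 7.98 and 7.89 in CMT-U27 co-culture, against 7.74 and 7.70 in single culture. Its ratios were 0.25 and 0.19 in CMT-U27, and 0.07 and -0.20 in P114. The CMT-U27 cultures did not overlap, which is no test. The mean of 0.22 was 1.16-fold with an unadjusted p of 0.0656 and an adjusted p of 1 in limma, so it did not pass. The gelatinase MMP9 had 8.56 and 8.43 in CMT-U27 co-culture, against 8.38 and 8.26 in single culture, with ratios of 0.18 and 0.16. Its P114 ratios were -0.05 and 0.20, and in that line both cultures were well above background on 1 of 2 arrays only.

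The collagenase MMP1 had ratios of 0.05 and 0.14 in CMT-U27 and of -0.07 and -0.21 in P114. Its second probe had -0.07 and 0.04 in CMT-U27 and -0.01 and -0.22 in P114. The collagenase MMP13 had 0.01 and 0.06 in CMT-U27 and 0.06 and 0.16 in P114. The gelatinase MMP2 lay between -0.05 and 0.05 over both probes in CMT-U27 and between 0.02 and 0.12 in P114. The membrane-bound MMP14 lay between -0.07 and 0.03 over both probes in CMT-U27 and between -0.18 and 0.11 in P114. All these values lay within the range that holds 95% of tested probes, which is 0.19 either side of 0 in CMT-U27 and 0.24 in P114.

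**Figure D2:**
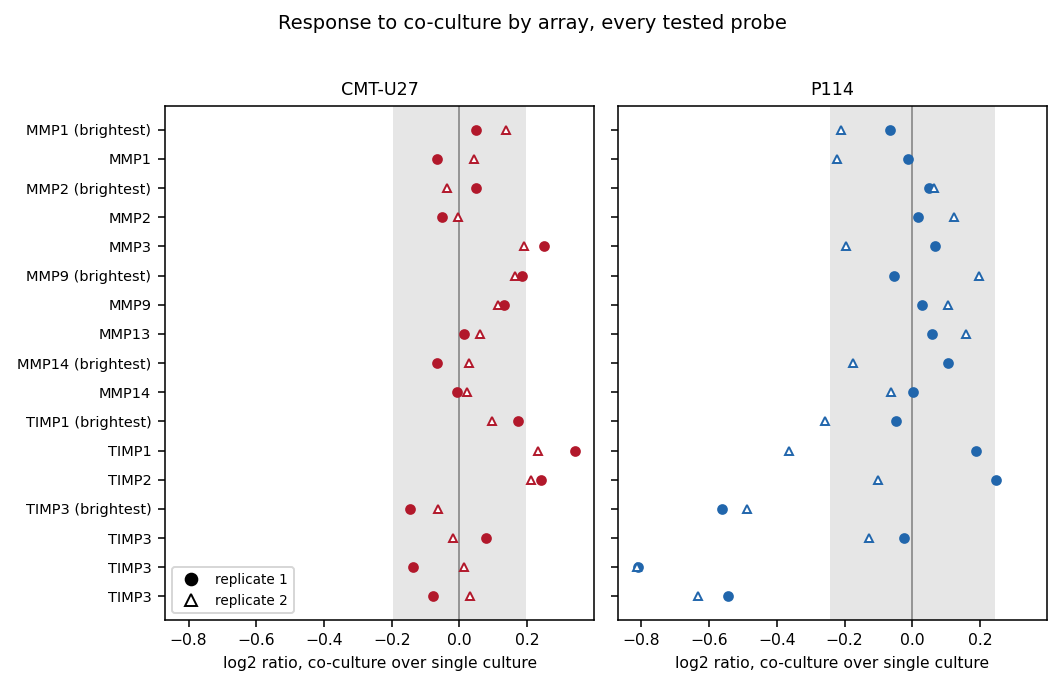
Log2 ratio of co-culture over single culture (horizontal axis) for each of the 17 tested probes, by array, with CMT-U27 on the left and P114 on the right. Filled circles are replicate 1, open triangles are replicate 2, and the grey band holds the mean ratios of 95% of all tested probes. The 3 downstream TIMP3 probes lie left of the band on both P114 arrays.

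Over the 9 genes by their brightest probe, 7 had a positive mean ratio in CMT-U27 and 4 in P114. Of all tested probes, 67.5% had a positive mean ratio in CMT-U27 and 55.1% in P114. The median was 0.09 in CMT-U27, beside 0.02 over all tested probes, and -0.03 in P114, beside 0.01 over all tested probes.

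**Figure D3:**
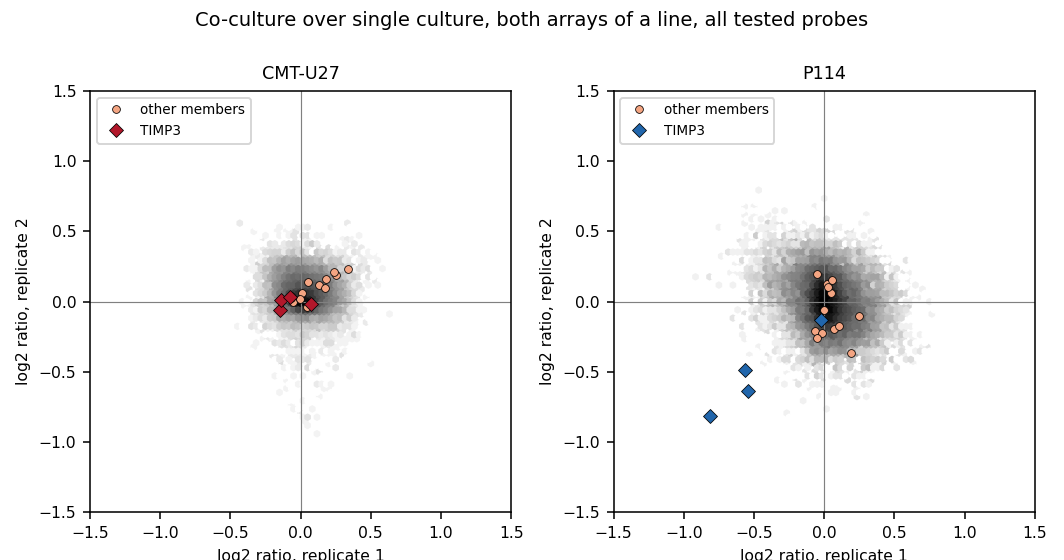
Log2 ratio of co-culture over single culture on replicate 1 (horizontal axis) against replicate 2 (vertical axis) of CMT-U27 (left) and P114 (right). Grey shading counts the 28692 tested probes on a log scale, orange circles are the tested probes of the other members, and diamonds are the 4 TIMP3 probes. In P114, 3 of the TIMP3 diamonds lie at the lower left edge of the cloud, with both ratios between -0.49 and -0.81.

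The genes whose 4 ratios were most like those of the brightest TIMP3 probe, by Euclidean distance over the 4 arrays, were CD38 at a distance of 0.147, MAN1A1 at 0.179 and MDM2 at 0.226. CD38 had ratios of -0.02 and -0.03 in CMT-U27 and of -0.49 and -0.48 in P114. No other member had the same sign on both arrays of a line with a mean beyond 0.3.

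Setting the lines against each other gave larger differences, the largest of them in TIMP1. TIMP1 was 6.11-fold lower in CMT-U27 than in P114 in single culture and 5.01-fold lower in co-culture. MMP9 was brighter in CMT-U27, by 2.22-fold in single culture and 2.39-fold in co-culture as measured. Both MMP9 probes entered the test only through CMT-U27, since 1 of the 2 P114 arrays did not measure them well above background, so these values are a description and their calls support nothing. TIMP3 passed the test in co-culture only, 1.84-fold higher in CMT-U27, and whether that gap differs between cultures is the response difference given above, which did not pass. In single culture, 2 member probes, both of MMP9, were called higher in CMT-U27 and 2 lower, beside 9.17% of all tested probes called higher and 8.16% called lower. In co-culture, 5 were called higher, the 2 of MMP9 among them, and 2 lower, beside 10.0% called higher and 7.75% called lower.

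The lines were compared by a separate-channel fit in limma after normalising brightness between arrays, since no array held both lines. Levels are of RNA from many cells together, so more expressing cells and more RNA per cell cannot be told apart. Whether the co-culture RNA included that of macrophages is not given. With the scanner software's processed signals in place of this normalisation, 42.9% rather than 52.9% of the called probes were higher in CMT-U27 in single culture, and 41.5% rather than 56.4% in co-culture.

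TIMP1 had single-culture levels of 11.65 and 11.89 in CMT-U27, against 14.43 and 14.33 in P114, and co-culture levels of 11.82 and 11.98 in CMT-U27, against 14.38 and 14.07 in P114. The lines did not overlap in either culture. The difference was -2.61 in single culture (95% interval -3.14 to -2.09, adjusted p = 0.00153 in limma) and -2.32 in co-culture (95% interval -2.85 to -1.80, adjusted p = 0.00213 in limma). The second probe gave -2.81 and -2.43, with adjusted p = 0.00875 and 0.0134 in limma.

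MMP9, which cuts denatured and basement membrane collagen, had single-culture levels of 8.38 and 8.26 in CMT-U27, against 7.48 and 6.85 in P114. In co-culture it had 8.56 and 8.43 in CMT-U27, against 7.43 and 7.05 in P114. The lines did not overlap, and the difference was 1.15 in single culture and 1.25 in co-culture. The overlapping second probe gave 0.88 and 0.94. Of the P114 arrays, only replicate 1 measured MMP9 well above background, and the single-culture difference was 1.53 without that array and 0.71 without P114 replicate 2. With the scanner software's processed signals the call was lost, at 3.98 in single culture (adjusted p = 0.324 in limma) and 3.13 in co-culture (adjusted p = 0.432 in limma).

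TIMP3 had co-culture levels of 11.63 and 11.49 in CMT-U27, against 10.54 and 10.82 in P114, a difference of 0.88 (95% interval 0.46 to 1.30, adjusted p = 0.0217 in limma). In single culture it had 11.77 and 11.56 in CMT-U27, against 11.10 and 11.31 in P114, a difference of 0.46 with adjusted p = 0.131. The other downstream probes differed by 0.78 and 0.77 in co-culture, both called, and by 0.03 and 0.20 in single culture, neither called. The junction-crossing probe differed by 0.31 in co-culture and 0.20 in single culture and was not called. With the scanner software's processed signals the co-culture difference of the brightest probe was 0.67 (adjusted p = 0.326 in limma).

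The other members were not called in either culture. MMP13 had single-culture levels of 7.53 and 7.47 in CMT-U27, against 6.93 and 7.12 in P114, and co-culture levels of 7.54 and 7.53 in CMT-U27, against 6.99 and 7.28 in P114. MMP1 had co-culture levels of 7.65 and 7.70 in CMT-U27, against 7.04 and 7.30 in P114. MMP14, the membrane enzyme, had co-culture levels of 7.02 and 7.18 in CMT-U27, against 7.64 and 7.18 in P114. The lines did not overlap in these values, but for MMP14 the replicate 2 levels were nearly equal. MMP13 was 0.47 higher in CMT-U27 in single culture (adjusted p = 0.101 in limma) and 0.40 in co-culture, and MMP1 was 0.27 higher in single culture and 0.50 in co-culture (adjusted p = 0.0835 in limma). The second MMP1 probe differed by -0.11 in single culture and 0.00 in co-culture, so the MMP1 probes disagreed. MMP3 differed by 0.19 and 0.48, and MMP14 by -0.32 and -0.31. TIMP2 differed by 0.05 in single culture, with a 95% interval from -0.61 to 0.71, and MMP2 by -0.01, with an interval from -0.29 to 0.28. The brightest probes of MMP1, MMP2, MMP3, MMP13 and MMP14 were dim, under 8 log2 units in every channel, where differences are drawn towards 0. MMP3 was the furthest from background, at 7.98 in CMT-U27 co-culture 1, against a median of 6.93 for probes not well above background there. All but MMP2 in CMT-U27 single culture were well above background on both arrays of each group.

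**Figure D4:**
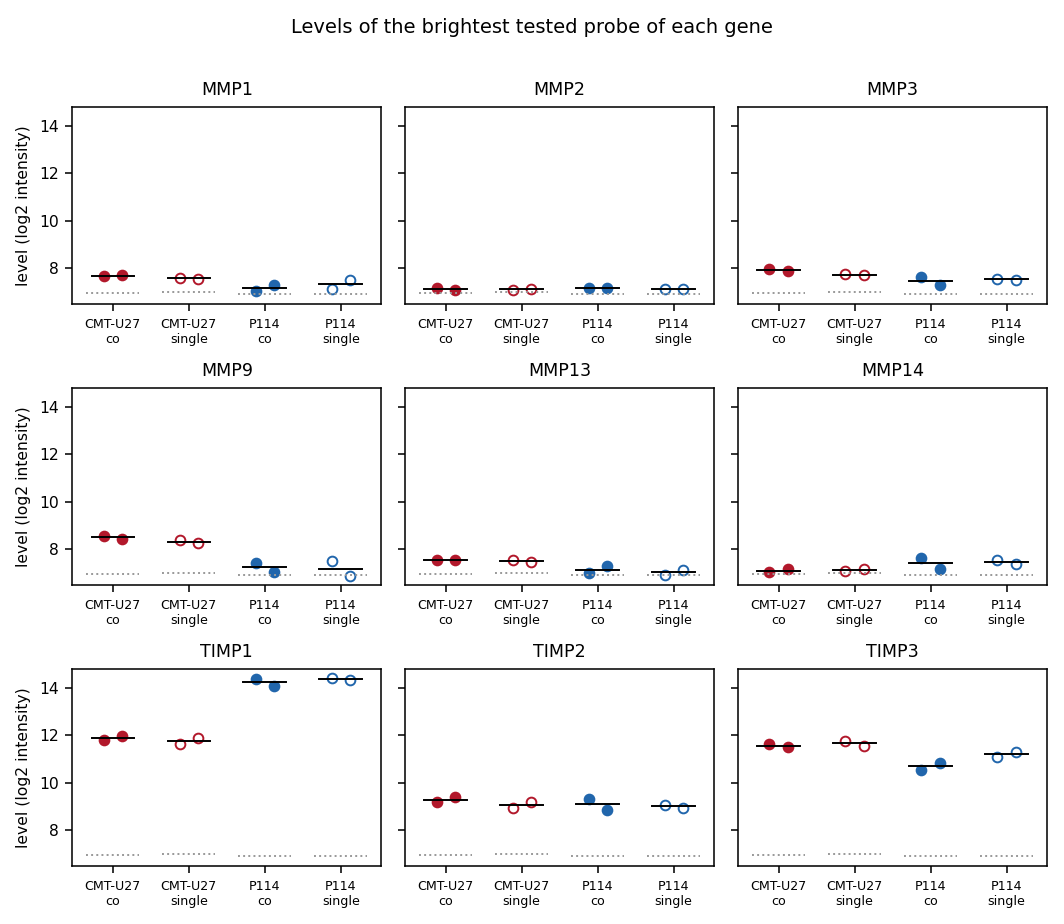
Level of the brightest tested probe of each gene in log2 intensity (vertical axis, the same in all panels) for CMT-U27 co-culture, CMT-U27 single culture, P114 co-culture and P114 single culture. Circles are the 2 arrays of a group, black bars their mean, and grey dotted lines the median of tested probes not well above background in those channels. TIMP1 lies between 14.07 and 14.43 in P114 and between 11.65 and 11.98 in CMT-U27. Of the 6 metalloproteinases, 5 lie low in all groups, with MMP3 the furthest of these from the dotted lines.

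**Figure D5:**
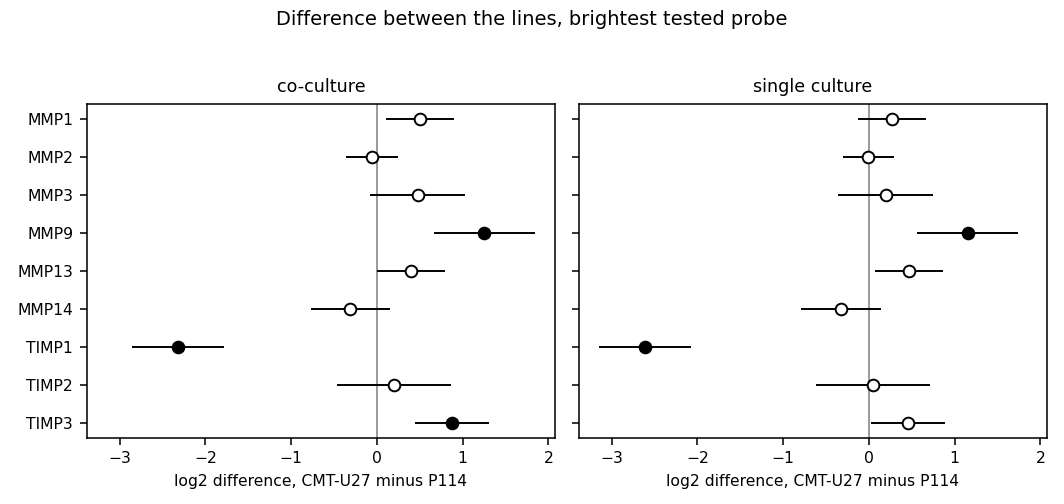
Difference in level, CMT-U27 minus P114, on the log2 scale (horizontal axis) for the brightest tested probe of each gene, in co-culture (left) and single culture (right). Bars are 95% intervals from limma and filled circles mark an adjusted p under 0.05. TIMP1 lies at -2.32 in co-culture and -2.61 in single culture, and MMP9 at 1.25 and 1.15.

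Other genes around the metalloproteinases were read from lists. Of 17 further metalloproteinases, 15 were on the array, 7 were tested and none passed in any comparison (0 higher, 0 lower). The median co-culture ratio of these 7 was 0.04 in CMT-U27 and -0.01 in P114, beside 0.02 and 0.01 over all tested probes. Of these, MMP11 was at 0.06 in CMT-U27 and 0.16 in P114. Of the inhibitors RECK and A2M, A2M had a ratio of -0.16 in P114 (unadjusted p = 0.0653 over the limma fit) and neither was called.

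Among 16 tested proteases and partners that activate or bind metalloproteinases, 0 passed in the response to co-culture. PLAU, the urokinase that converts plasminogen to plasmin, an activator of several pro-metalloproteinases, had the smallest p of this list in P114, with a ratio of 0.69 ± 0.06 (SD, n = 2) and an adjusted p of 0.797 in limma. Its receptor PLAUR was at 0.46 ± 0.01 in P114. PLAT, another plasminogen activator, was at 0.34 in CMT-U27, and CTSB, a lysosomal protease, at 0.17 ± 0.46 (SD, n = 2). Between the lines in single culture, 4 of the 16 were called higher in CMT-U27, beside 9.17% of all tested probes, and 6 were called lower, beside 8.16%. PLAU was lower in CMT-U27, with a log2 difference of -2.09 (adjusted p = 0.00755 in limma).

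Several substrates of these enzymes differed between the lines, and 0 of the list passed in the response to co-culture. Of 14 tested matrix substrates, 12 had a lower level in CMT-U27 in each culture. Of these, 7 were called lower in single culture, beside 8.16% of all tested probes, and 8 in co-culture, beside 7.75%, while 0 were called higher in either. The list had medians of -1.13 and -1.19 beside 0.00 over all tested probes in both. FN1, fibronectin, differed by -5.58 in single culture, with 8.93 in CMT-U27 and 14.51 in P114 on average, and by -4.48 to -0.39 over its other probes. COL4A1, a basement membrane collagen chain, differed by -3.45. With co-culture, FN1 had the smallest p of the list in CMT-U27, with a ratio of 0.54 ± 0.13 (SD, n = 2), followed by COL1A2 at 0.31 ± 0.02, and neither passed. The other FN1 probes ran from 0.00 to 0.42 in CMT-U27.

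Markers of other cells were read beside these results. EPCAM, a marker of the sort, averaged 14.89 in CMT-U27 co-culture, 15.00 in CMT-U27 single culture, 12.28 in P114 co-culture and 12.34 in P114 single culture. All 9 tested epithelial markers had a higher level in CMT-U27 in both cultures. Of them, 6 were called in single culture, beside 9.17% of all tested probes called higher, and 8 in co-culture, beside 10.0%. Of 10 tested fibroblast markers, 9 had a lower level in CMT-U27 in single culture and 8 in co-culture. Called lower were 2 in single culture, beside 8.16% of all tested probes, and 3 in co-culture, beside 7.75%, namely COL1A2 and S100A4 in both and COL1A1 in co-culture. The median difference of the 10 was -0.24 in single culture and -0.18 in co-culture, beside 0.00 over all tested probes in both. The summed linear level of the fibroblast list was 6509 to 6961 in CMT-U27 co-culture, 5673 to 6064 in CMT-U27 single culture, 89784 to 119000 in P114 co-culture and 109940 to 140890 in P114 single culture. Given those medians, the sums do not describe the typical marker of the list. Neutrophils are another cell type known to hold MMP9, and of 4 tested neutrophil markers 1 was called higher in CMT-U27 in both cultures, S100A8, which some epithelial cells also express. In each culture 3 of the 4 were higher in CMT-U27 and 1 was lower, with a median difference of 0.16 in single culture and 0.21 in co-culture. MPO, also on the list, was well above background on no array. Their summed level was 3484 to 3715 in CMT-U27 co-culture and 699 to 931 in P114 co-culture, which the small medians show is not typical of the list. The part of these lists in the TIMP1 and MMP9 differences was not tested.

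Of 18 macrophage markers on the array, 2 were well above background on both arrays in CMT-U27 co-culture and 2 in CMT-U27 single culture, against 5 in P114 co-culture and 5 in P114 single culture. A further 5 were above it on a single array in CMT-U27 co-culture and 2 in CMT-U27 single culture, against 13 in each P114 culture. On no array were 11 in CMT-U27 co-culture, 14 in CMT-U27 single culture and 0 in either P114 culture. CSF1R and CD163 were above it on no CMT-U27 array. C1QC, FCER1G and SPI1 were above it on no array in CMT-U27 single culture but on at least a single array in CMT-U27 co-culture. The summed linear level of the 5 tested macrophage markers was 1429 to 1615 in CMT-U27 co-culture, against 1329 to 1547 in single culture, and 1532 to 1718 in P114 co-culture, against 1762 to 1768 in single culture. The summed level was not higher in co-culture in P114, and its ranges overlapped in CMT-U27. It rests on 5 of the 18 markers, so it says little about the rest of the list. The part of macrophage RNA in the TIMP3 ratio was not tested.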

How the data were processed

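Spot brightness and local background were deposited as linear intensity, written by Agilent Feature Extraction, version 10.10.1.1 per the file headers and 10.7.3.1 per the submitters' processing notes. The authors' series value table equals the scanner software's log10 ratio of Cy5 over Cy3 (largest gap 0, column medians 0), whose scale and direction come from the file headers. It served as an alternative. The scanner software's flags, as deposited, served as filters.

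Mean intensities were corrected by normexp (offset 50) and normalised by loess within arrays, control spots having weight 0. Marked spots were left out, which lost 40 probes, and spots of a probe were averaged. Limma 3.58.1 (R 4.3.3) fitted the log2 ratios of all 4 arrays with a coefficient per line and a dye term, with 1 residual and 2.76 prior degrees of freedom. Levels were fitted per channel after Aquantile, with an intraspot correlation of 0.926 and 3 residual and 2.54 prior degrees of freedom. Both fits were tested on simulated data. P-values were adjusted by Benjamini-Hochberg over all 28692 tested probes. Plots used matplotlib 3.10.9 under Python 3.11.15.

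The members and lists were chosen with earlier results of these data known. All members and probes are given, a gene being represented by its brightest tested probe. From each list the 2 members with the smallest p in each line were to be named. COL4A1, S100A4, ADAM15, ADAM17, JUND, EPCAM, S100A8, CSF1R, CD163, C1QC, FCER1G and SPI1 were named after their values were seen. RefSeq names came from a dog annotation of another build and gave no coordinates. Replicate numbers follow record order and pair nothing. The alternatives tried were uncorrected background, the scanner's log ratio or processed signals, median centring, Aquantile before the ratio fit, quantile normalisation, other filters, marked spots kept, no dye term, averaged probes and each array left out. Precision is limited by the number of arrays.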

Additional observations from a re-analysis of the deposited data

Results flagged for a closer look

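MMP1 and TIMP1 were each higher in co-culture on both CMT-U27 arrays and lower on both P114 arrays. The response of CMT-U27 minus that of P114 was 0.23 for MMP1 and 0.29 for TIMP1. A test of that difference in limma gave an adjusted p of 1 for both, with unadjusted p-values of 0.0614 for MMP1 and 0.068 for TIMP1. Under median centring both differences passed in limma, at 0.63 for MMP1 (adjusted p = 0.0465) and 1.23 for TIMP1 (adjusted p = 0.00853), beside a median of 0.51 over all tested probes, and TIMP1 in P114 turned to 0.29. The second TIMP1 probe had opposite signs on the P114 arrays, and the second MMP1 probe on the CMT-U27 arrays.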

How the results depend on the processing

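Among recomputed member values, 459 kept their call or stayed uncalled within the spread between arrays, 65 stayed uncalled but moved by more, 29 newly passed, 3 lost their call and 1 reversed. TIMP3 was negative in P114 under all 13 alternatives, from -0.58 to -0.13 for its brightest probe, and never called. Several of these cannot change a P114 ratio, so the sign was fixed under them. They are Aquantile before the ratio fit, the other filters, no dye term and leaving out a CMT-U27 array. Ratios that could not change and stayed uncalled are counted among the 459. By its brightest probe, or the average of its probes, TIMP1 was called lower in CMT-U27 under all 12 alternatives in both cultures. Its second probe was called lower under 10 of 11 in each culture. Fits with an array left out are among these, and there a line had 1 array. The 3 lost calls, MMP9 in both cultures and TIMP3 in co-culture, came with the scanner software's processed signals and are given above.

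Median centring in place of loess moved the median of all tested probes to 0.68 in CMT-U27, 0.16 in P114 and 0.51 in the difference. It called 17343 probes for CMT-U27, 5 for P114 and 12448 for the difference. Under it TIMP3 turned to 1.26 in CMT-U27, which is 0.58 above that median, and stayed at -0.13 in P114, which is -0.29 against that median. TIMP1 came to 1.52, TIMP2 to 1.24, MMP9 to 0.91 and MMP3 to 0.63 in CMT-U27, so the size of the CMT-U27 responses rests on loess.

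Without background correction, 12 probes were called for CMT-U27 and 1 for the difference. With the filter on all channels, 1 was called for CMT-U27. Between the lines, the processed signals called 2118 probes in single culture and 2110 in co-culture, and no dye term called 9889 and 10044. Leaving out each array gave 0 to 17 calls for CMT-U27 (17 without CMT-U27 replicate 1), 0 to 64 for P114 and 0 to 61 for the difference (64 and 61 without P114 replicate 2). Between the lines it gave 4827 to 16320 in single culture and 5154 to 16081 in co-culture. Without P114 replicate 1 these were 13841 and 15108, and without P114 replicate 2 they were 16320 and 16081. Without P114 replicate 1, the co-culture differences were 0.36 for MMP1, 0.68 for MMP3, 0.26 for MMP13 and 0.45 for TIMP2. In single culture they were 0.40 for MMP13 and 0.37 for TIMP3. Without P114 replicate 2, MMP1 differed by 0.38 in single culture and 0.58 in co-culture, MMP13 by 0.49 and 0.49. MMP14 differed by -0.37 and -0.44, MMP3 by 0.28 in co-culture and TIMP3 by 0.53 in single culture. In each fit with an array left out, a line had 1 array, so no spread between arrays of that line entered. Calls from these fits, the member calls counted above included, therefore support no difference between the lines. How far this accounts for the higher counts without a P114 array was not tested. No paired analysis was possible because replicate numbers come from record order and pair no arrays across lines.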

Other observations

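Transcription factors that act on metalloproteinase promoters were tested as a list of 15 genes. In the response to co-culture 0 of them passed in either line, with medians of 0.06 in CMT-U27 and -0.06 in P114, beside 0.02 and 0.01 over all tested probes. RELA, a subunit of NF-kB, had the smallest p of this list in P114, with a ratio of 0.41 ± 0.03 (SD, n = 2), and NFKB1 in CMT-U27, with 0.27 ± 0.11. Between the lines in single culture, 1 was called higher in CMT-U27, beside 9.17% of all tested probes, and 3 lower, beside 8.16%. In co-culture 2 were called higher, beside 10.0%, and 3 lower, beside 7.75%. FOS, an AP-1 subunit, was called higher in CMT-U27 by 2.80 in single culture and 2.91 in co-culture. JUND, another AP-1 subunit, differed by -1.53 and -1.32.

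Of 8 tested ADAM and ADAMTS proteases, membrane and matrix enzymes that TIMP3 is known to inhibit, 0 passed in the response to co-culture. In single culture 5 had a lower level in CMT-U27, and 3 were called lower, beside 8.16% of all tested probes, namely ADAM15 with -1.46, ADAM17 with -1.01 and ADAMTS1 with -0.65. The other probes of ADAM15 ran from -0.56 to -0.22 and those of ADAM17 from -0.24 to -0.05, so probes of these genes disagreed in size. ADAMTS1 had the smallest p of this list in the P114 response, with a ratio of -0.22 ± 0.05 (SD, n = 2).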
